A study of Mus musculus with 12 samples.

Results

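The genes described here are the nuclear genes for the subunits of the oxidative phosphorylation machinery, measured in myeloid cells from regenerating mouse muscle. Members were chosen by name: symbols beginning with Ndufa, Ndufb, Ndufc, Ndufs, Ndufv, Uqcr, Cox4i, Cox5, Cox6, Cox7, Cox8 or Atp5, together with Sdha, Sdhb, Sdhc and Sdhd. Complex I assembly factors (Ndufaf) and symbols marked as pseudogenes were dropped, and a total of at least 120 counts over the 12 libraries was required. Of 24421 symbols in the count table, 85 fitted the names and 80 met the count limit, and all 80 were among the 12981 genes tested. They comprised 35 genes of complex I, 4 of complex II, 8 of complex III, 16 of complex IV and 15 of complex V. The other 2, Atp5s and Atp5sl, carry the Atp5 prefix without being subunits of the enzyme and were kept apart.

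Muscle injury was made in the tibialis anterior with notexin, a snake venom toxin that destroys muscle fibres, and cells were collected on day 5. The sort kept live (PI-) CD45+ CD11B+ cells without LY6G or SIGLECF, which the submitters call macrophages. The 4 groups of 3 libraries were Ifngr1 wt/null with isotype antibody, Ifngr1 wt/null with an antibody that neutralizes TNF, and Ifngr1 null/null with either antibody. Antibody was injected into the peritoneum every day after injury. Ifngr1 is the receptor chain that binds interferon gamma, and every group, controls included, carried at least 1 null allele and had the same injury. The age of the mice, the cell types in which the null allele acts and whether each library came from its own mouse are not in the sources used here. The p-values therefore measure the spread between these samples, which may be technical.

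Oxidative phosphorylation is carried out by the respiratory chain and ATP synthase in the inner mitochondrial membrane. Complex I takes electrons from NADH and complex II from succinate, complex III passes them to cytochrome c, complex IV reduces oxygen, and the proton gradient built on the way drives ATP synthesis by complex V. Macrophages are known to shift between glycolytic and oxidative metabolism as they pass from inflammatory to repair states, and interferon gamma and TNF are both inflammatory cytokines. Subunits encoded by the mitochondrial genome were not analysed here.

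Libraries held 23.2 to 29.9 M counts. Ifngr1 stood at 226 to 250 CPM (counts per M counts of a library, M for mega, after TMM scaling) in the 6 wt/null libraries and at 83.3 to 119 CPM in the 6 null/null libraries. Summed markers of monocytes and macrophages (Ptprc, Itgam, Adgre1, Csf1r, Cd68, Lyz2, Fcgr1 and Mertk) reached 22341 to 28821 CPM in every library. T and NK cell markers summed to 0.773 to 19.1 CPM and B cell markers to 0.0389 to 0.797 CPM. Libraries wt/null anti-TNF 2 and null/null anti-TNF 1 stood apart: they had the highest sums for dendritic cell markers (239 and 200 CPM, against 63.4 to 109 CPM elsewhere) and for T and NK cell markers (19.1 and 10.7 CPM). They also had the lowest sums for the osteoclast-type genes Ctsk, Mmp9, Acp5 and Ocstamp (408 and 483 CPM, against 888 to 3533 CPM elsewhere). Neutrophil markers (203 and 216 CPM, against 118 to 158), endothelial markers (48.3 and 43.3 CPM, against 17.6 to 36.5) and muscle stem cell markers (14.5 and 13.7 CPM, against 6.14 to 12.9) were also highest there. Fibroblast markers were lowest there (326 and 239 CPM, against 503 to 1240).

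No member passed the edgeR test in any of the 8 comparisons, and DESeq2 and limma voom also called 0 members in each. Together the members took 0.669% to 0.865% of all counts of a library, and their levels were close in all 4 groups. The summed level was 7539 ± 350 CPM (SD, n = 3) in wt/null isotype and 7765 ± 860 CPM in wt/null anti-TNF. It was 7875 ± 522 CPM in null/null isotype and 7319 ± 557 CPM in null/null anti-TNF. The 4 ranges overlapped, with single libraries between 6714 and 8736 CPM. In bulk libraries of sorted cells, fewer cells of a type and less RNA per cell cannot be told apart.

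Levels between genes were compared per kb of transcript, as CPM per kb averaged over the 12 libraries. The median was 58.5 in complex I, 94.6 in complex II, 106 in complex III, 134 in complex IV and 153 in complex V. The highest member was Cox4i1 at 566 CPM per kb, the widely expressed form of the complex IV subunit 4. Atp5b, the catalytic beta subunit of ATP synthase, followed at 361 CPM per kb, and Cox6b1 of complex IV at 335 CPM per kb. Uqcrh, the hinge subunit of complex III, had 276 CPM per kb. Sdhb, the iron-sulfur subunit, led complex II at 120 CPM per kb, and Ndufa6, an accessory subunit, led complex I at 183 CPM per kb.

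**Figure D1:**
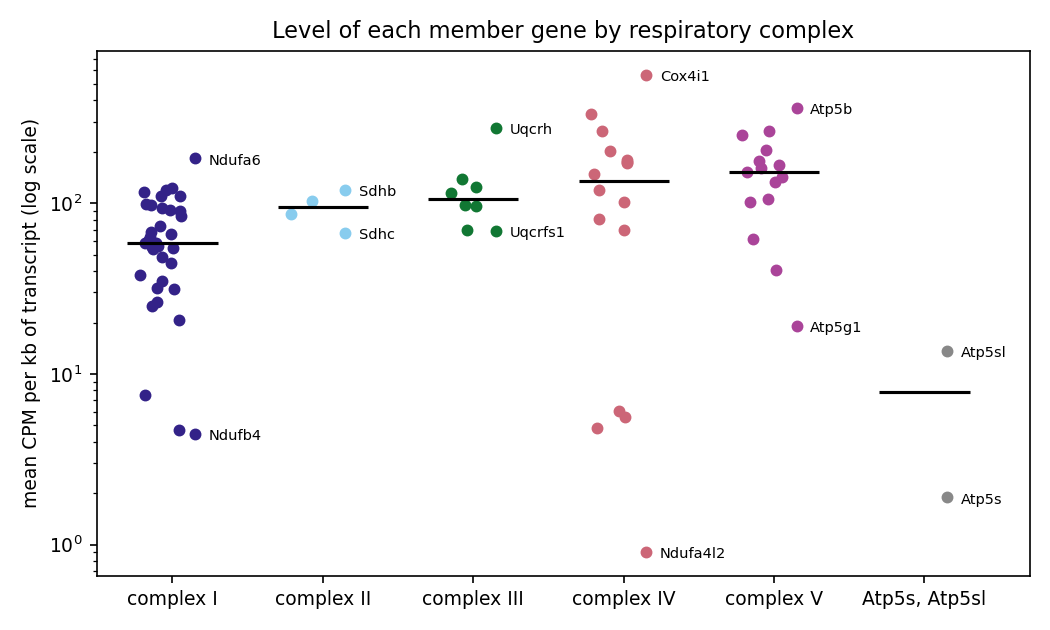
Mean level of each of the 80 member genes over the 12 libraries, in CPM per kb of transcript on a log axis, grouped by respiratory complex, with a black bar at each median. Medians go from 58.5 in complex I to 153 in complex V, and the lowest subunit gene, Ndufa4l2, is at 0.908.

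The 7 nuclear-encoded core subunits of complex I, which are part of its catalytic core, had a median of 54.5 CPM per kb. The 28 accessory genes had 59.5. Complex I also held 3 genes far under the others per kb: Ndufb2 at 7.54, Ndufab1 at 4.70 and Ndufb4 at 4.45 CPM per kb. The lengths used for Ndufb2 and Ndufab1 were long, 2413 and 2448 bases, which lowers their values per kb. By CPM, Ndufb2 had a mean of 18.2, near Ndufa5 at 18.7. The length used for Ndufa5 was 595 bases, which gave 31.4 CPM per kb. Ndufb4 and Ndufab1 have near-identical copies elsewhere in the genome (95% identity over at least 200 bases), as do 22 of the 80 members, so reads of these genes could be split or lost in counting. Atp5l had the most copies, 9 genes. A gene on the other strand overlapped the span of 30 members, introns included. Since the strand setting of the counting was not given, reads from any exon stretch shared by such a pair may not be told apart.

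The names left out by the count limit were Cox4i2 with 60 counts in all, Cox8b with 74, and Ndufs5, Cox8c and Cox7b2, which were listed at 0 in every library. Ndufs5 has a near-identical pseudogene, BC002163, described at the end. Whether reads of Ndufs5 were lost in counting was not tested. The lowest member was Ndufa4l2 with 262 counts. Several subunits of complex IV have a second form that is restricted to some tissues, and all of these forms were scarce here. Cox6a2, the heart and muscle form of subunit 6A, made up 2.05% to 3.68% of the per-length level of Cox6a2 and Cox6a1 together. Cox7a1, the muscle form of subunit 7A, made up 3.05% to 5.68% of its pair with Cox7a2. Cox6b2, known from testis, made up 1.04% to 2.49% of its pair with Cox6b1.

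Ndufa4l2, known as a hypoxia-induced relative of Ndufa4, made up 0.247% to 1.04% of that pair. Cox8b made up 0.0415% to 0.482% of its pair with Cox8a, and Cox4i2, a form known from lung, made up 0.00832% to 0.105% of its pair with Cox4i1. Across libraries, markers of skeletal muscle fibres such as Acta1, Ckm and Mylpf summed to 112 to 211 CPM, and their part in the counts of the muscle forms was not tested. Cox6a2 overlaps Itgad on the other strand. Cox6a2, Cox7a1, Cox6b2 and Ndufa4l2 were the only members whose highest library was at least 2 times the lowest. The fold was 2.35, 2.09, 2.80 and 3.83 in that order, at mean levels of 0.848 to 4.11 CPM.

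The values of these forms overlapped between groups. Cox6a2 was at 4.41, 3.93 and 3.39 CPM for wt/null isotype, 4.61, 4.18 and 3.49 for wt/null anti-TNF, 3.34, 5.98 and 4.70 for null/null isotype, and 2.54, 5.17 and 3.53 for null/null anti-TNF. For Cox7a1 the values in that order of groups were 1.35, 2.57 and 2.46, then 2.01, 1.27 and 2.33, then 2.12, 2.04 and 2.49, then 1.59, 2.49 and 2.66 CPM. Both muscle forms overlapped between all 4 groups. Cox6b2 was at 1.39, 3.08 and 1.80, then 3.16, 1.80 and 3.07, then 1.59, 3.89 and 2.45, then 2.27, 2.64 and 2.16 CPM. Ndufa4l2 was at 0.953, 1.20 and 0.450, then 1.19, 1.23 and 0.699, then 0.570, 0.540 and 0.726, then 0.417, 1.59 and 0.607 CPM. The lowest and the highest value of Ndufa4l2 were both in null/null anti-TNF. Under the count limit, Cox8b stayed between 0.0372 and 0.463 CPM and Cox4i2 between 0.0388 and 0.519 CPM.

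The widely expressed partners were abundant in every library. Cox6a1 was at 100, 116 and 126 CPM for wt/null isotype, 109, 97.6 and 140 for wt/null anti-TNF, 101, 133 and 132 for null/null isotype, and 87.6, 114 and 126 for null/null anti-TNF. Cox6b1 in the same order was at 148, 163 and 147, then 163, 155 and 184, then 157, 171 and 188, then 153, 166 and 160 CPM. All 4 groups overlapped for both genes. Cox7a2 was at 63.3, 65.4 and 69.3, then 68.3, 60.5 and 77.8, then 64, 69.5 and 72.2, then 56, 62.4 and 66.3 CPM. Cox8a was at 128, 139 and 152, then 137, 133 and 168, then 128, 164 and 175, then 132, 144 and 146 CPM. Ndufa4, once counted as a complex I subunit and now known from complex IV, was at 77.9, 78.9 and 89.5, then 81.2, 70.9 and 94.3, then 81.9, 76.4 and 82.4, then 70.7, 74.7 and 82.8 CPM. These groups overlapped too.

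Promoters are shown for 1 gene of each complex, to let the reader see the sequence around motifs of factors known to drive respiratory genes. The gene chosen was the most abundant one of its complex with a match. For 67 members the RefSeq promoter table (GRCm38.p6) held a sequence, and the 250 bases before each start were searched on both strands. Capitals mark the match: GCGCATGC (NRF1) in Ndufa6, Sdhb and Cox6a1, CCGGAAGT (ETS or GABP) in Uqcrh and TCAAGGTCA (ERR) in Atp5g3, each on the strand shown or as its reverse complement. The stretches are chr15:82354292-82354541 (minus strand), chr4:140961021-140961270 (plus strand), chr4:116075071-116075320 (minus strand), chr5:115348959-115349208 (minus strand) and chr2:73911327-73911576 (minus strand). In Cox6a1 there are 2 matches that overlap, 1 on each strand. Starts differ between RefSeq and the GENCODE annotation used for positions here. GENCODE starts Sdhb at chr4:140961203, inside the stretch shown, and the marked match lies past that start. The stretches of Ndufa6 and Cox6a1 also reach into the GENCODE genes.
Ndufa6: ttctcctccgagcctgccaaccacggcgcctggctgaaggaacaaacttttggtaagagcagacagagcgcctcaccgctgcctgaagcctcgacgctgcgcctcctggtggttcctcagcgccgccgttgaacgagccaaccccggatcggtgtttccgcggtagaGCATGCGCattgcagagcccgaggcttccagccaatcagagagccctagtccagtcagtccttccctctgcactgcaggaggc
Sdhb: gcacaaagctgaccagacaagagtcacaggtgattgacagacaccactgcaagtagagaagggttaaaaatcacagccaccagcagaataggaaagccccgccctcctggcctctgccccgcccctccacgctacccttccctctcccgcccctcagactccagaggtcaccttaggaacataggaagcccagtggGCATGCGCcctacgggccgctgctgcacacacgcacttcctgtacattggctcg
Uqcrh: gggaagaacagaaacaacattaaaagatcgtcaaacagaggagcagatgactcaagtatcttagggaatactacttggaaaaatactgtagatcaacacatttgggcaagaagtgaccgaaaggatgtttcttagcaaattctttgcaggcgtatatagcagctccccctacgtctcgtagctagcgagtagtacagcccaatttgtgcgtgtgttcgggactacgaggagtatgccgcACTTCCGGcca
Cox6a1: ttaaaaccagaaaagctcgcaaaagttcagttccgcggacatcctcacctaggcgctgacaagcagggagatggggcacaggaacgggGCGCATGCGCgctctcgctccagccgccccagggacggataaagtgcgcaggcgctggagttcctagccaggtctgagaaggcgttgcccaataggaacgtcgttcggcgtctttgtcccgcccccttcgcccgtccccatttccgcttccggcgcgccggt
Atp5g3: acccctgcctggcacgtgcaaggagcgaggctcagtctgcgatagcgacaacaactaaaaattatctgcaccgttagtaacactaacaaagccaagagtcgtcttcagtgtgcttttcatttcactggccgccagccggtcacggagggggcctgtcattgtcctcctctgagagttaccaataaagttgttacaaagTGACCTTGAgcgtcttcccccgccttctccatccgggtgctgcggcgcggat

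The NRF1 motif GCGCATGC was present in 8 of the 67 member promoters (11.9%): Atp5g2, Atp5k, Atp5l, Cox6a1, Ndufa11, Ndufa6, Ndufa8 and Sdhb. Of 9911 tested genes with a promoter 4.98% held it, and of all 27025 genes with a promoter 2.56%. The ETS or GABP motif CCGGAAGT was in 4.48% of member promoters (Atp5h, Uqcr11 and Uqcrh), against 6.61% of tested genes and 3.23% of all genes. The ERR motif TCAAGGTCA was found in Atp5g3 alone among members (1.49%, against 0.283% of tested and 0.422% of all genes). The YY1 motif AAGATGGCG was in Atp5j and Atp5sl (2.99%, against 1.42% of tested and 0.71% of all genes). A match describes the letters only, and 14 of the 67 promoters held any of the 4 motifs.

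Anti-TNF against isotype in wt/null mice asked what TNF neutralization changes where a functional receptor allele is present. No member passed at an adjusted p below 0.05 by edgeR, and 0% of all tested genes did. At an unadjusted p below 0.05 there were 2 members (2.5%, against 4.48% of tested genes). The members' median log2 fold change was 0.07, against 0.00 over all tested genes, and 62 members had estimates above 0 and 18 below. The 95% interval lay within ±0.5 for 72 members. Without library wt/null anti-TNF 3 the median was 0.00, and without the 2 libraries that stand apart it was 0.12. In 9 members (11.2%) the 3 anti-TNF libraries all lay above the 3 isotype libraries, against 5.71% of tested genes: Atp5h, Ndufs4, Ndufa6, Atp5g2, Ndufa2, Atp5c1, Atp5e, Uqcrh and Ndufa3. The opposite order was seen in 0 members and in 4.45% of tested genes.

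The same antibody in null/null mice gave estimates on the other side of 0. No member passed by edgeR, as for 0% of tested genes, and 2 members had an unadjusted p below 0.05 (2.5%, against 3.48%). The median log2 fold change was -0.11 against 0.01 over all tested genes, with 17 members above 0 and 63 below. The interval lay within ±0.5 for 59 members and within ±1 for all but Ndufa4l2. The median was -0.06 without null/null isotype 3 or without null/null anti-TNF 1. In 4 members (5%) all anti-TNF libraries lay below all isotype libraries (Ndufs8, Atp5k, Ndufab1 and Atp5l), against 4.55% of tested genes. No member had the opposite order, which 3.87% of tested genes had.

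Null/null against wt/null under isotype asked what loss of the second receptor allele changes with TNF present. Of all tested genes 0.00770% passed, which is 1 gene, Ifngr1 itself, and no member did. With an unadjusted p below 0.05 there were 2 members (2.5%, against 1.80%), Ndufa2 and Ndufa3. The median log2 fold change was 0.07, with 60 members above 0 and 20 below, against a median of 0.00 over all tested genes. It was 0.01 without null/null isotype 3. Non-overlapping groups were seen for 3 members higher in null/null (3.75%, against 4.31% of tested genes) and for Atp5s lower (1.25%, against 3.65%).

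Under anti-TNF, the genotype comparison gave estimates below 0 for 77 of the 80 members and above 0 for 3. The median was -0.09, a ratio of 0.940, against a median of 0.00 over all tested genes. No member passed by edgeR, with 0.00770% of tested genes past the threshold (again Ifngr1), and 2 had an unadjusted p below 0.05 (2.5%, against 1.98%). All estimates lay between -0.27 (Atp5k) and 0.26 (Cox7a1). Groups did not overlap for 3 members lower in null/null (3.75%, against 2.58% of tested genes), Ndufs4, Atp5c1 and Atp5l. For higher levels in null/null the count was 0, against 2.57%. Without library wt/null anti-TNF 3 the median was -0.02.

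Both perturbations against neither, null/null anti-TNF against wt/null isotype, had a median of -0.04, with 26 members above 0 and 54 below. No member passed by edgeR (0.00770% of tested genes, Ifngr1), and Atp5h alone had an unadjusted p below 0.05 (1.25%, against 2.13%). The 2 members with all libraries higher (2.5%, against 4.29%) were Ndufa6 and Ndufa3, and the 1 with all libraries lower was Atp5c1 (1.25%, against 3.61%). Without the 2 libraries that stand apart the median turned to 0.03.

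The interaction, the antibody effect in null/null minus that in wt/null, had the median farthest from 0 of the 8 comparisons, at -0.16 against 0.00 over all tested genes, with 74 members below 0 and 6 above. No member passed by edgeR, nor did any other gene (0%). An unadjusted p below 0.05 was reached by 6 members (7.5%, against 1.51% of tested genes): Atp5k, Ndufs8, Ndufa3, Ndufa2, Cox5b and Ndufb7. Precision was lower here, with the 95% interval inside ±0.5 for 31 members and inside ±1 for 75. The median stayed at -0.16 without the 2 libraries that stand apart and was -0.07 without wt/null anti-TNF 3. The comparisons above share groups with one another, so their medians are not independent of each other. The members also moved together over the libraries, with a median Pearson r of 0.72 with the mean of the other members. Counts of members are therefore not counts of independent observations.

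Averaged over genotypes, the antibody gave a median of -0.02, with 33 members above 0 and 47 below, and of 0.03 without the 2 libraries that stand apart. No member passed by edgeR, as for 0% of tested genes, and 2 members, Atp5h and Cox7a2l, came under an unadjusted p of 0.05 (2.5%, against 7.31%). Averaged over antibodies, the genotype gave a median of -0.02 with 31 members above 0 and 49 below. No member passed by edgeR at an adjusted p below 0.05 (0.00770% of tested genes, Ifngr1), and 0 came under an unadjusted p of 0.05, where 2.46% of tested genes did. In each of these averages the interval was within ±0.5 for 76 of the 80 members.

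**Figure D2:**
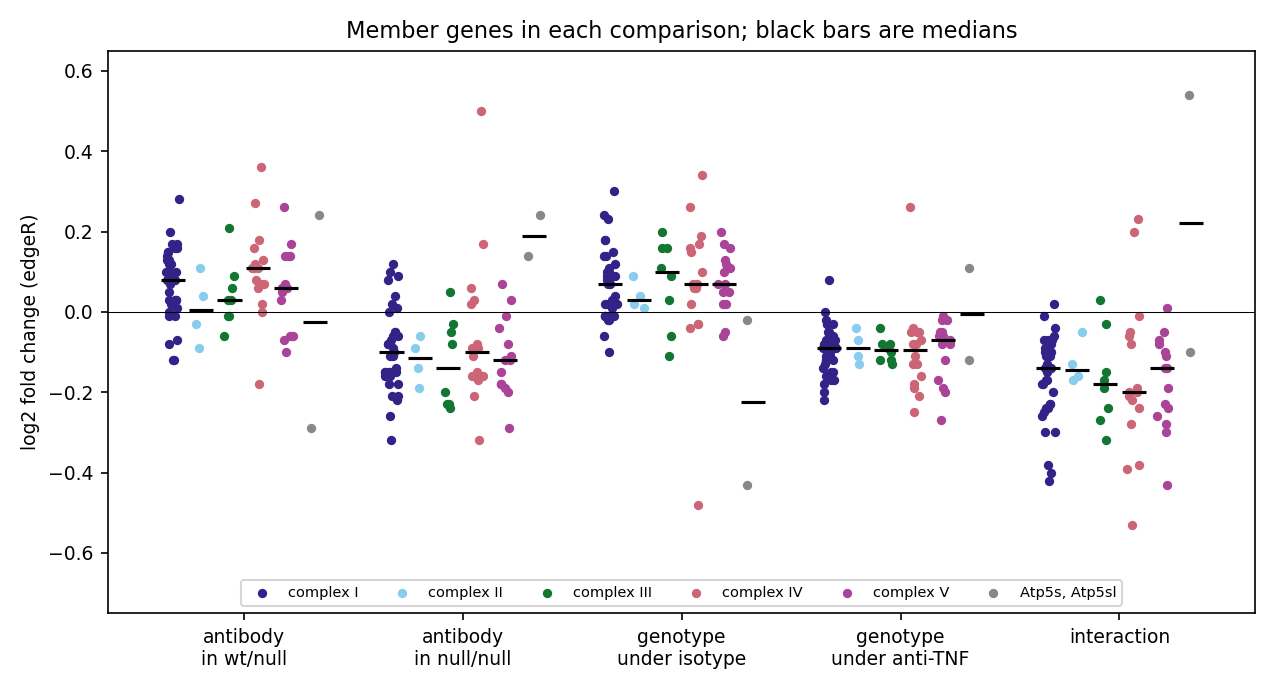
Log2 fold change of each member in 5 comparisons (anti-TNF against isotype in each genotype, null/null against wt/null under each antibody, and the interaction), coloured by complex, with black bars at the medians of each complex. No point passed the edgeR test. Estimates lie mostly above 0 for the antibody in wt/null (62 of 80) and mostly below 0 for the antibody in null/null (63 of 80).

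By complex, the antibody in wt/null gave medians of 0.08 in complex I, 0.01 in II, 0.03 in III, 0.11 in IV and 0.06 in V. In null/null the medians were -0.10, -0.11, -0.14, -0.10 and -0.12 in the same order. Under anti-TNF, the genotype gave estimates below 0 for 34 of 35 genes of complex I, all 4 of complex II, all 8 of complex III, 15 of 16 of complex IV and all 15 of complex V. The interaction medians went from -0.14 (complexes I and V) to -0.20 (complex IV). The medians of the 5 complexes thus had the same sign in each of these comparisons, and none of the differences between complexes was tested.

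In complex I, Ndufs8 had the smallest unadjusted p. This iron-sulfur subunit (chr19:3908863-3912774, minus strand, GRCm38) was at 60, 73.2 and 62.7 CPM in wt/null isotype and at 63.4, 69.2 and 74 CPM in wt/null anti-TNF. It was at 64.5, 73.8 and 83.5 CPM in null/null isotype and at 57.8, 63.7 and 55.8 CPM in null/null anti-TNF. All 3 null/null anti-TNF libraries lay below the null/null isotype libraries, the nearest values being 63.7 and 64.5 CPM. The log2 fold change was -0.32 ± 0.11 (SE), and the edgeR adjusted p was 0.947.

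Ndufa2, an accessory subunit of complex I, showed its smallest p for the genotype under isotype. Its level was 60.6, 62.6 and 61.8 CPM in wt/null isotype and 63.7, 74.7 and 79.5 CPM in null/null isotype. With anti-TNF it was 65.3, 68.1 and 71 CPM in wt/null and 66.3, 68.1 and 61.6 CPM in null/null. The wt/null isotype libraries lay below those of both single perturbations, while the null/null anti-TNF libraries overlapped them. The log2 fold change for the genotype under isotype was 0.24 ± 0.09 (SE), with an edgeR adjusted p of 1.

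Complex II had no member with an unadjusted p below 0.05 in any of the 8 comparisons. Sdha, the flavoprotein that oxidizes succinate, was at 246, 251 and 282 CPM in wt/null isotype and 230, 216 and 287 CPM in wt/null anti-TNF. In null/null it was at 264, 248 and 273 CPM with isotype and 216, 234 and 262 CPM with anti-TNF. The groups overlapped throughout. Sdhc, a membrane anchor of the complex, was at 133, 131 and 139 CPM for wt/null isotype, 134, 113 and 147 for wt/null anti-TNF, 144, 135 and 150 for null/null isotype, and 103, 136 and 136 for null/null anti-TNF. The lowest value was that of null/null anti-TNF 1, one of the libraries that stand apart. The antibody in null/null gave a log2 fold change of -0.19 ± 0.12 (SE) and an edgeR adjusted p of 0.947.

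Complex III had no unadjusted p below 0.05 either. Uqcrh was at 125, 125 and 116 CPM in wt/null isotype and at 138, 137 and 147 CPM in wt/null anti-TNF. It was at 112, 134 and 149 CPM in null/null isotype and at 131, 139 and 117 CPM in null/null anti-TNF. The anti-TNF libraries lay above the isotype libraries in wt/null, and in null/null they overlapped. The log2 fold change in wt/null was 0.21 ± 0.11 (SE), with an edgeR adjusted p of 0.895. Uqcrc1, a core protein of the complex, was at 190, 189 and 202, then 173, 161 and 221, then 182, 204 and 231, then 152, 176 and 196 CPM in the groups in the same order. The libraries of all groups overlapped. It had an estimate of -0.24 ± 0.13 for the antibody in null/null, with an edgeR adjusted p of 0.947.

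In complex IV, Cox5b, a subunit of the nuclear-encoded shell of the enzyme, was at 76.9, 88 and 89.2 CPM in wt/null isotype and 87.5, 86.2 and 111 CPM in wt/null anti-TNF. In null/null it was at 86.7, 97 and 105 CPM with isotype and 75.8, 85.4 and 88 CPM with anti-TNF. The groups overlapped in all of these pairs. The interaction was -0.38 ± 0.16 on the log2 scale, with an edgeR adjusted p of 1. Cox4i1 was at 400, 416 and 397 CPM for wt/null isotype, 419, 406 and 483 for wt/null anti-TNF, 393, 439 and 512 for null/null isotype, and 403, 448 and 416 for null/null anti-TNF, with overlap between all groups. It had means of 404 ± 10.1 (isotype) and 436 ± 41.0 CPM (anti-TNF) in wt/null, and 448 ± 60.0 and 422 ± 23.2 CPM in null/null (SD, n = 3).

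Cox7a2l, which helps complexes III and IV join into supercomplexes, had a correlation of -0.42 over the 12 libraries with the mean of the other members. Its level was 207, 190 and 172 CPM in wt/null isotype and 222, 234 and 189 CPM in wt/null anti-TNF. In null/null it was 186, 171 and 195 CPM with isotype and 212, 221 and 188 CPM with anti-TNF. Isotype and anti-TNF libraries overlapped in both genotypes. Averaged over genotypes, the antibody gave a log2 fold change of 0.17 ± 0.08 (SE) with an edgeR adjusted p of 0.66.

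In complex V, Atp5h, a subunit of the peripheral stalk, had the smallest unadjusted p of all members. It was at 84.2, 92.9 and 90.1 CPM in wt/null isotype and at 109, 103 and 107 CPM in wt/null anti-TNF. In null/null it was at 93.3, 94 and 101 CPM with isotype and at 103, 106 and 92.2 CPM with anti-TNF. The wt/null groups did not overlap and the null/null groups did. The log2 fold change in wt/null was 0.26 ± 0.08 (SE), with an unadjusted p of 0.00704 and an adjusted p of 0.895 by edgeR. Atp5h (chr11:115415689-115419962, minus strand) has 4 near-identical pseudogenes.

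Atp5k, a small subunit of the membrane part, had an interaction of -0.43 ± 0.17 with an edgeR adjusted p of 1. It was at 37.9, 42.5 and 43.8 CPM in wt/null isotype and at 48.2, 37.2 and 51.7 CPM in wt/null anti-TNF. In null/null it was at 42.1, 49.9 and 46.7 CPM with isotype and at 36.8, 39.7 and 37.2 CPM with anti-TNF. Only the null/null groups were apart from each other. Atp5b, the most abundant member by CPM, was at 668, 707 and 788, then 637, 557 and 824, then 747, 690 and 756, then 525, 644 and 766 CPM in the groups in the same order. Its lowest values were those of the 2 libraries that stand apart. It had means of 721 ± 61.3 (isotype) and 673 ± 137 CPM (anti-TNF) in wt/null, and 731 ± 36.0 and 645 ± 121 CPM in null/null (SD, n = 3).

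Outside the subunits, Atp5s was at 3.02, 4.06 and 3.12 CPM for wt/null isotype, 3.42, 2.70 and 2.17 for wt/null anti-TNF, 2.28, 2.54 and 2.73 for null/null isotype, and 3.18, 2.45 and 3.30 for null/null anti-TNF. The isotype groups of the 2 genotypes did not overlap. Atp5s had a genotype estimate under isotype of -0.43 ± 0.23 at a mean level of 2.92 CPM, with an edgeR adjusted p of 1. Atp5sl was at 26.9, 23.2 and 24.5, then 27.1, 34.6 and 26.7, then 21.4, 27.9 and 24.3, then 29.7, 26.1 and 25.3 CPM in the same order, with overlap between antibodies in both genotypes. Atp5sl had an estimate of 0.19 ± 0.09 for the antibody averaged over genotypes, with an edgeR adjusted p of 0.66.

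**Figure D3:**
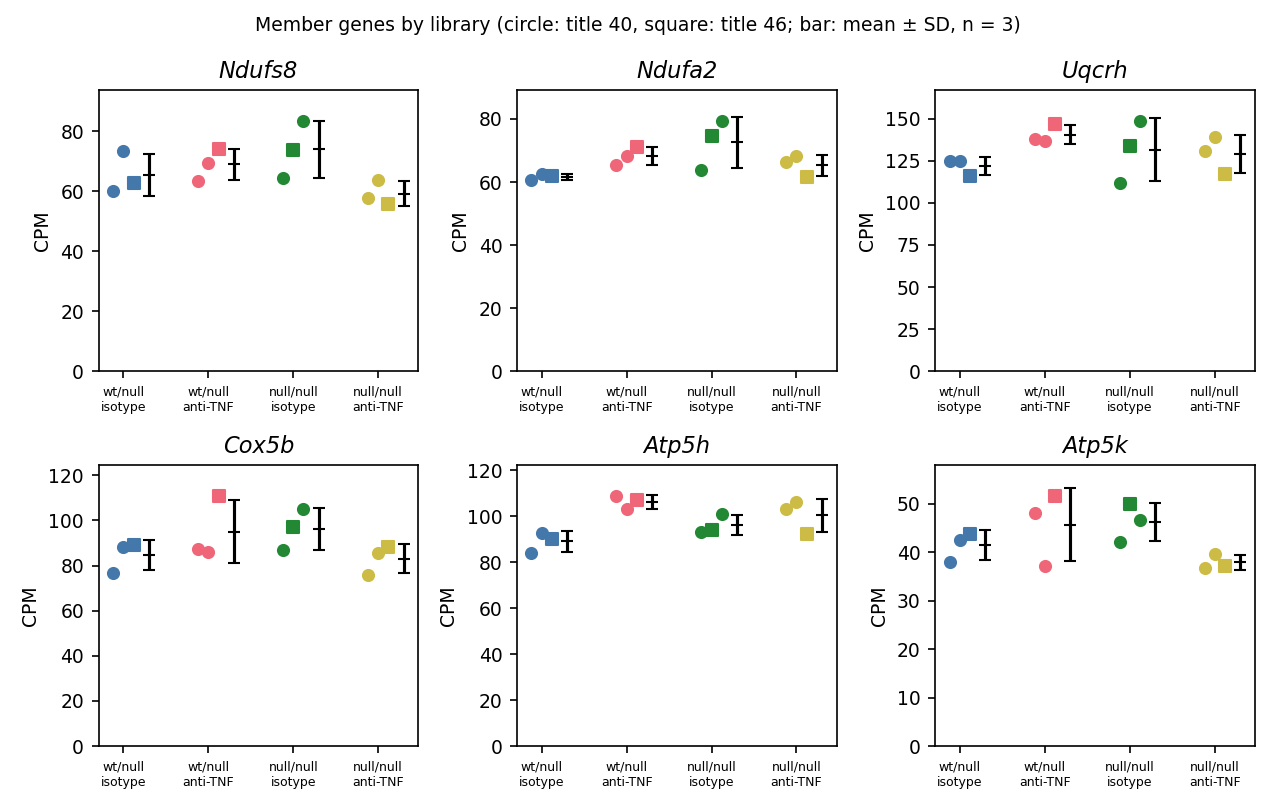
CPM of 6 member genes in each of the 12 libraries, by group, with circles for samples whose title begins with 40, squares for 46, and bars for the mean ± SD (n = 3). Atp5h is at 84.2 to 92.9 CPM in wt/null isotype and at 103 to 109 CPM in wt/null anti-TNF, and Ndufs8 is at 64.5 to 83.5 CPM in null/null isotype and at 55.8 to 63.7 CPM in null/null anti-TNF.

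The members shared a course over the libraries, and their common level varied between libraries of the same group. In each library, the median deviation of the 80 members from their own means was taken on the log2 CPM scale. It was -0.09, -0.02 and 0.06 in wt/null isotype and -0.02, -0.07 and 0.19 in wt/null anti-TNF. It was -0.06, 0.04 and 0.14 in null/null isotype and -0.16, -0.04 and 0.03 in null/null anti-TNF. The pooled SD within groups was 0.106, and the SD of the 4 group means was 0.045. Means of 3 libraries vary less than single libraries through averaging alone, so these SDs are not like measures. All tested genes had medians between 0.00 and 0.01 in these libraries, which is largely set by TMM scaling, since it levels the bulk of genes.

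In wt/null anti-TNF 3, 75 of the 80 members lay above their own mean, and in null/null isotype 3, 68 did. In wt/null isotype 1 and null/null anti-TNF 1 only 10 and 11 did. All 5 complexes took part: in wt/null anti-TNF 3 the complex medians were 0.18 to 0.24, and in null/null anti-TNF 1 they were -0.15 to -0.21. Over the 12 libraries, a member's log2 CPM had a median Pearson r of 0.72 with the mean of the other members, and 58 of 80 had an r above 0.5. Non-members of at least 10 CPM (8355 genes) had a median r of -0.01 with the members' mean. These points share library and depth, and no p is given.

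Ndufa12, Cox5b and Cox7b followed the others most closely, with r of 0.96, 0.95 and 0.95. An r below 0 was found for 6 members: Cox7a2l (-0.42), Ndufb4 (-0.35), Atp5s (-0.34), Atp5sl (-0.24), Ndufa4l2 and Ndufs4 (both -0.09). The non-members of at least 10 CPM most like the members' mean over the 12 libraries were Idh3b (r = 0.92), Spg7 and Txn2 (both 0.91), and Prdx2 and Phb2 (both 0.90). The spread of single members was near that of all genes of at least 10 CPM. For the 74 members at that level, the median SD over the libraries was 0.14 on the log2 scale. It was 0.15 for all 8429 such genes, which were not matched to the members for level. The widest spread among the 74 members was found in Ndufb2, Atp5g1, Ndufb6, Ndufab1 and Uqcr11. Ndufb2 was at 17.7, 16.5 and 20 CPM for wt/null isotype, 15.3, 13.1 and 21.5 for wt/null anti-TNF, 17.1, 21.8 and 22.3 for null/null isotype, and 15.7, 16.7 and 20.5 for null/null anti-TNF. Atp5g1, a gene for the membrane ring subunit c, was at 43.8, 49.6 and 59.9, then 42.9, 40.5 and 63.4, then 50, 57 and 60.4, then 39.4, 50.1 and 56.1 CPM. In both anti-TNF groups the lowest value of these genes was that of the library that stands apart. Ndufb6, an accessory subunit of complex I, was at 24.1, 28.2 and 37.9, then 29.5, 25.3 and 36.1, then 34, 32.5 and 31.7, then 25.9, 26.3 and 35.5 CPM. Ndufab1, the mitochondrial acyl carrier protein, was at 10.8, 10.2 and 14.2, then 10.4, 9.13 and 15.4, then 11.4, 11.4 and 12.9, then 10.3, 10.8 and 11.1 CPM. Uqcr11 of complex III was at 38.6, 41.4 and 46.7, then 40.7, 33.7 and 51.7, then 39.7, 47.5 and 54.1, then 34.6, 41.8 and 46.6 CPM. These 3 genes, too, were lowest in the library that stands apart in each anti-TNF group.

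**Figure D4:**
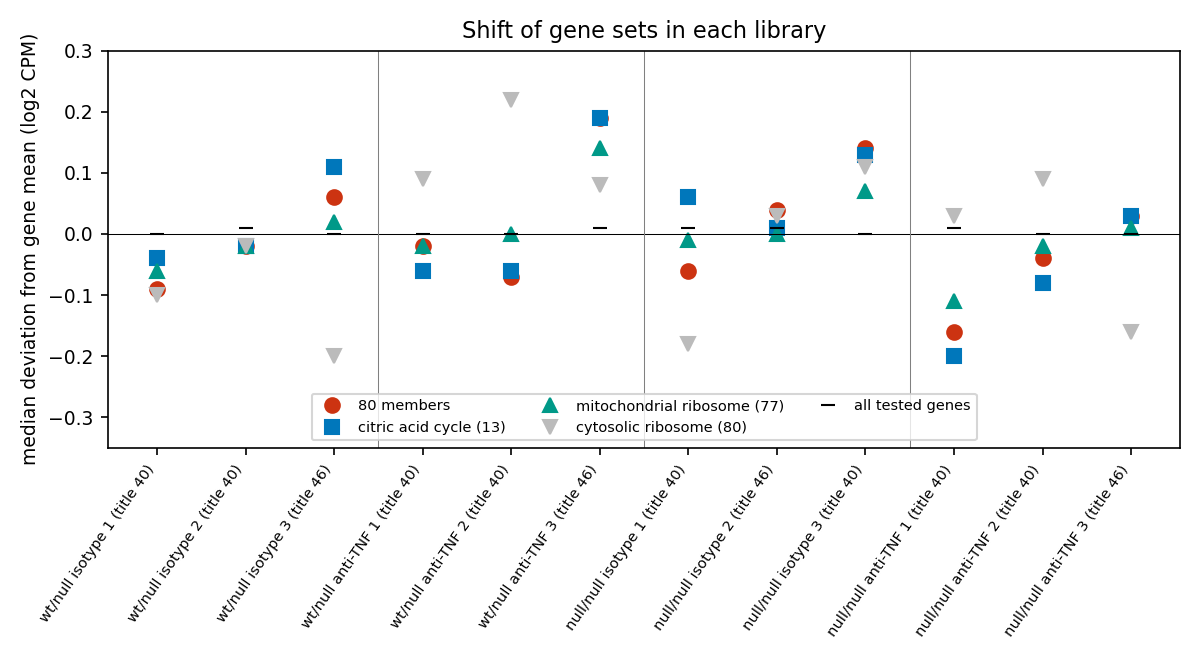
Median deviation of gene sets from each gene's mean over the 12 libraries (log2 CPM, y axis) in each library (x axis), for the 80 members, 13 citric acid cycle genes, 77 mitochondrial ribosome genes, 80 cytosolic ribosome genes and all tested genes. The members are highest in wt/null anti-TNF 3 (0.19) and lowest in null/null anti-TNF 1 (-0.16). All tested genes, the bulk of which TMM scaling levels, stay between 0.00 and 0.01.

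Sample titles begin with 40 or 46, with 1 title of 46 in each group and no meaning given for the number. The members' shift was above 0 in all 4 libraries titled 46 (0.03 to 0.19) and in 1 of the 8 titled 40. With the title number in the edgeR model, no member passed (0.0154% of tested genes did, which is 2 genes). An unadjusted p below 0.05 was reached by 22 members (27.5%, against 9.83% of tested genes). The median coefficient for 46 against 40 was 0.11, with 67 members above 0 and 13 below, against -0.01 over all tested genes. The letter after the number has no stated meaning either: titles starting 40C and 46C cover all 4 groups, 40A only anti-TNF and 40B only isotype. Both libraries that stand apart start with 40C. With number and letter as a block, 0 members passed by edgeR in each of the 8 comparisons, and the median was -0.09 for the genotype under anti-TNF (4 above 0, 76 below) and -0.16 for the interaction.

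The osteoclast-type genes summed to 3524, 3533, 1474 and 2846 CPM in the libraries titled 46 and to 408 to 2290 CPM in those titled 40. In wt/null anti-TNF 2 and null/null anti-TNF 1, where dendritic, T and NK cell, neutrophil, endothelial and muscle stem cell markers were highest and fibroblast and osteoclast-type markers lowest, the members' shift was -0.07 and -0.16. The part of these other cells in the members' levels was not tested.

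Other mitochondrial genes were set beside the members by list. The 13 genes of the citric acid cycle, which feeds the respiratory chain with NADH and succinate, shifted between -0.20 (null/null anti-TNF 1) and 0.19 (wt/null anti-TNF 3). The 77 mitochondrial ribosomal proteins, which translate the subunits made inside the organelle, shifted between -0.11 and 0.14 in the same libraries. The 80 tested cytosolic ribosomal proteins had a different course over the single libraries. Their lowest value was -0.20 in wt/null isotype 3 and their highest was 0.22 in wt/null anti-TNF 2. None of the 234 tested genes of the 6 lists passed by edgeR in any of the 8 comparisons.

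In the citric acid cycle list, Ogdh, the E1 enzyme of the 2-oxoglutarate dehydrogenase complex, had an estimate of -0.22 ± 0.08 for the antibody averaged over genotypes, with an edgeR adjusted p of 0.66. Its group means were 273 ± 3.18 and 239 ± 34.0 CPM in wt/null and 286 ± 15.6 and 240 ± 22.2 CPM in null/null (isotype, then anti-TNF; SD, n = 3). Among 8 genes of oxidative phosphorylation outside the naming rule (Cyc1, Cycs and others), all 8 had estimates below 0 for the genotype under anti-TNF and for the interaction, with medians of -0.06 and -0.11. The 44 tested assembly factors had 17 estimates above 0 and 27 below for the genotype under anti-TNF (median -0.05), and 22 of each for the interaction (median 0.00). The 12 tested regulators, among them Nrf1, Gabpa, Tfam, Esrra and Yy1, had medians of 0.04 and 0.08 in these comparisons. Mitochondrial ribosomal proteins had 12 estimates above 0 and 65 below in each of them, with medians of -0.09 and -0.11. Cytosolic ribosomal proteins had 2 above and 78 below in each, with medians of -0.16 and -0.25. Estimates mostly below 0 were thus not particular to the members in these comparisons.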

How the data were processed

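Messenger RNA of sorted cells was sequenced in 12 samples of 4 groups. The authors deposited whole-number counts per gene symbol without normalization, and the submitters' processing notes name bcl2fastq 2.20, STAR, Bowtie and mm10 without their roles. The sources used here do not give the counting tool, its strand setting or the annotation. The 12 columns were matched to samples by title, with 0 left over.

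Genes were filtered with filterByExpr (12981 kept), scaled by TMM and fitted on all 12 libraries as 4 group means with edgeR 4.0.16 robust quasi-likelihood tests in R 4.3.3. The tests were two-sided, with Benjamini-Hochberg adjustment over all tested genes and a threshold of 0.05. The procedure was also tested on simulated data. Log2 CPM used a prior count of 2. Transcript lengths and positions came from GENCODE M21 (GRCm38), which has 79 members under their own symbol and Atp5sl as Dmac2, and copies from BLAST+ 2.17.0. Lengths are medians over protein-coding transcripts.

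The members and lists were chosen with earlier results of these data known. Members are given values by sample (Cox4i2 and Cox8b, under the count limit, as ranges) when they had an adjusted p below 0.05, were among the 2 smallest unadjusted p or the highest CPM of their complex, were restricted isoforms or their partners, or were among the 5 with the largest SD at 10 CPM or more. Of the members this rule names, 1 is not reported here. From each list the 2 genes with the smallest p could be named. Ndufa3 and Ndufb7, the non-overlapping members and the extremes of level and correlation were named after their values were seen. Other settings were DESeq2 1.42.0, limma 3.58.1 voom with sample weights, RLE scaling, no filter (total count of 1 or more), a filter of 1 CPM in 3 samples, a block for the title number, the samples titled 40 alone, and fits without the 2 libraries that stand apart or without each library in turn. The title coefficient, the counts of non-overlapping groups, a block for the title number and letter, and other settings for the cytosolic ribosome list were added after the data were seen.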

Additional observations from a re-analysis of the deposited data

How the results depend on the processing

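The count of members past the threshold was 0 in each of the 8 comparisons under all 21 other settings, 168 counts in all, DESeq2 and limma voom included. The members' median log2 fold change moved by less than the spread between replicates in all 168 alternatives. This is a weak check, because the medians were small and one that changed sign could still meet it. That of both against neither went from -0.04 to 0.03 without the 2 libraries that stand apart. With 1 library left out, the median ranged from 0.00 to 0.12 for the antibody in wt/null, from -0.14 to -0.06 for the antibody in null/null, from 0.01 to 0.10 for the genotype under isotype, and from -0.15 to -0.02 for the genotype under anti-TNF. For both against neither the range was -0.09 to 0.03, for the interaction -0.23 to -0.07, for the averaged antibody -0.06 to 0.01 and for the averaged genotype -0.05 to 0.02. Without the 2 libraries that stand apart, the medians were 0.12 for the antibody in wt/null, -0.06 for the antibody in null/null and 0.03 for the averaged antibody. Of 609 alternatives for 29 named members, 607 kept their direction. All kept their side of the threshold, since no member passed in any setting. Cox6b2 had an interaction of 0.12 with only samples titled 40 (-0.53 with all), and Ndufa4 had a genotype estimate under anti-TNF of 0.00 without wt/null anti-TNF replicate 3 (-0.11 with all, and between -0.21 and 0.00 with 1 library left out); the cause was not tested in either case. The labels give no replicate number shared across groups, but titles share a number and a letter whose meaning is not given. With the title number as a block the medians were 0.07, -0.11, 0.07, -0.09, -0.04 and -0.16 for the antibody in wt/null, the antibody in null/null, the genotype under isotype, the genotype under anti-TNF, both against neither and the interaction, in that order. With number and letter as a block (40A, 40B, 40C, 46C), added after the data were seen, they were 0.05, -0.12, 0.07, -0.09, -0.06 and -0.16, and no call changed under either block.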

Other observations

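Ndufs5, a complex I subunit gene on chr4 (chr4:123712710-123718202, minus strand, GRCm38), was listed at 0 counts in all 12 libraries. The symbol BC002163 belongs to a processed pseudogene that is near-identical to its transcript and was chosen after its values were seen. BC002163 was at 1.03, 0.727 and 5.78 CPM in wt/null isotype and at 4.54, 4.79 and 1.01 CPM in wt/null anti-TNF. It was at 0.814, 0.656 and 1.00 CPM in null/null isotype and at 5.83, 5.95 and 4.86 CPM in null/null anti-TNF. The 12 values thus fell into 6 between 0.656 and 1.03 CPM and 6 between 4.54 and 5.95 CPM, with none between. Counts were 17 to 29 in the lower libraries and 117 to 167 in the higher ones. For the antibody in null/null, where the groups did not overlap, the log2 fold change was 2.74 ± 0.77 (SE) with an edgeR adjusted p of 0.947. Within both wt/null groups the libraries were split, 1 against 2. The cause of the split and that of the 0 counts for Ndufs5 were not tested.

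Among cytosolic ribosomal proteins, 75 of 80 had estimates above 0 for the antibody in wt/null, with a median log2 fold change of 0.25, and 36 (45%) came under an unadjusted p of 0.05, where 4.48% of tested genes did. That count fell to 6 (7.5%, against 1.93% of tested genes) without the 2 libraries that stand apart. It was 6 (7.5%, against 1.58%) without wt/null anti-TNF 2 alone and 4 (5%, against 4.38%) without wt/null isotype 3. With the title number and letter as a block it was 6 (7.5%, against 6.97%). The median was 0.19 to 0.20 in these settings. The list's shift was highest in wt/null anti-TNF 2 (0.22), one of the libraries that stand apart, and lowest in wt/null isotype 3 (-0.20). None passed by edgeR at an adjusted p below 0.05. In null/null the median was -0.01 (39 above 0 and 41 below), and the interaction had a median of -0.25 with 78 of 80 below 0. Rpl14, a protein of the large subunit, was at 321 ± 21.3 CPM (SD, n = 3) in wt/null isotype and 380 ± 1.64 CPM in wt/null anti-TNF. It was at 334 ± 2.72 CPM in null/null isotype and 342 ± 11.0 CPM in null/null anti-TNF, and its estimate in wt/null was 0.24 ± 0.08 with an edgeR adjusted p of 0.895.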
